A study of Mus musculus with 6 samples.

Results

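The genes described here encode 8 ligases of SUMO, a small protein that is attached to other proteins in the way ubiquitin is, and 1 ubiquitin ligase that acts on SUMO-modified proteins. They were chosen by gene symbol for their known function and number 9 of the 37924 genes in the deposited table: Pias1, Pias2, Pias3, Pias4, Zmiz1, Zmiz2, Nsmce2, Ranbp2 and Rnf4. All 9 were found once each and all 9 entered the test. Transcripts were measured by RNA sequencing in whole ovaries of mice of strain C57BL/6J/129S7/SvEvBrd at postnatal day 14. All animals carried 2 copies of the same floxed allele, whose gene is not reported here. In the 3 control libraries they had no Cre transgene. In the 3 libraries of the conditional knockout, abbreviated cKO, they also carried Gdf9iCre, a Cre recombinase under the promoter of the oocyte gene Gdf9. A library pools ovaries of 3 mice, 1 ovary per animal, and the error given below is therefore between pools. The Cre acts in oocytes, while the RNA came from all cells of the ovary, in which fewer cells of a type and less RNA per cell cannot be told apart.

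SUMO is activated by an E1 enzyme, passed to an E2 enzyme and then placed on target proteins, often with the help of an E3 ligase that holds the E2 enzyme and the target together. The PIAS proteins are the largest family of such E3 ligases and carry a zinc-binding domain, the SP-RING, which the Zmiz proteins and the Nsmce2 protein also have. Ranbp2 is an E3 ligase of another build, and Rnf4 is not a SUMO ligase but a ubiquitin ligase that recognises chains of SUMO and marks the carrier protein for degradation. In growing oocytes SUMO is found on chromatin and on regulators of transcription.

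Libraries differed in ways that bear on small changes. Depth, estimated from the lowest values, lay between 19.6 and 24.9 M fragments (M for 1e6), so that an FPKM (fragments per kilobase of transcript and per M fragments) of 1 in a transcript of 2 kb stands for 39.2 to 49.8 fragments. Mitochondrial genes took 7.31% of summed FPKM in cKO 1 and 10.7% to 14.2% in the other libraries. All 13 oocyte markers and all 10 granulosa cell markers were detected. The summed FPKM of 4 adipose markers was 36.8 in control 3 against 14.2 to 17.0 elsewhere, and that of 2 neutrophil markers was 526 in cKO 3 against at most 0.90 elsewhere, so results are also given without control 3 and cKO 3. Other libraries differed too. The sum of 2 blood markers ran from 1051 to 3451 in control and from 414 to 2151 in cKO. That of 4 surface epithelium markers was lowest in cKO 1, at 37.3, and highest in cKO 2, at 148.

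None of the 9 genes passed the test between cKO and control, in which limma was fitted to log2(FPKM + 1) of all 14934 genes with a mean FPKM of at least 0.5 and p-values were adjusted over all of them by the Benjamini-Hochberg method, with a threshold of 0.05. Over all genes tested 4.33% passed, 2.24% as higher and 2.09% as lower in cKO, a share that comes to less than 1 gene in a list of this length. At an unadjusted p below 0.05 there was 1 gene of the 9, Zmiz1, higher in cKO, against 24.3% of all genes tested, 14.5% higher and 9.8% lower. The FPKM of control and cKO libraries did not overlap for 2 of the 9, Zmiz1 and Pias3, both higher in cKO, against 30% of all genes in either direction, 18% higher and 12% lower. The log2 change was positive for 7 of the 9, against 58.5% of all genes tested, and negative for Pias2 and Nsmce2, with a median of 0.11 beside 0.05 over all genes tested.

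The intervals show which changes these libraries leave room for. For the 8 genes other than Zmiz1, the 95% intervals of the change lay between -0.42 and 0.58 on the log2(FPKM + 1) scale, a range from 0.748-fold to 1.497-fold. For the 4 PIAS genes they lay between -0.22 and 0.49, which is 0.86-fold to 1.41-fold. The interval of Zmiz1 ran from 0.13 to 0.86 before any adjustment for the number of genes. A p above the threshold does not show equal levels, and differences inside each gene's own interval remain possible.

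**Figure D1:**
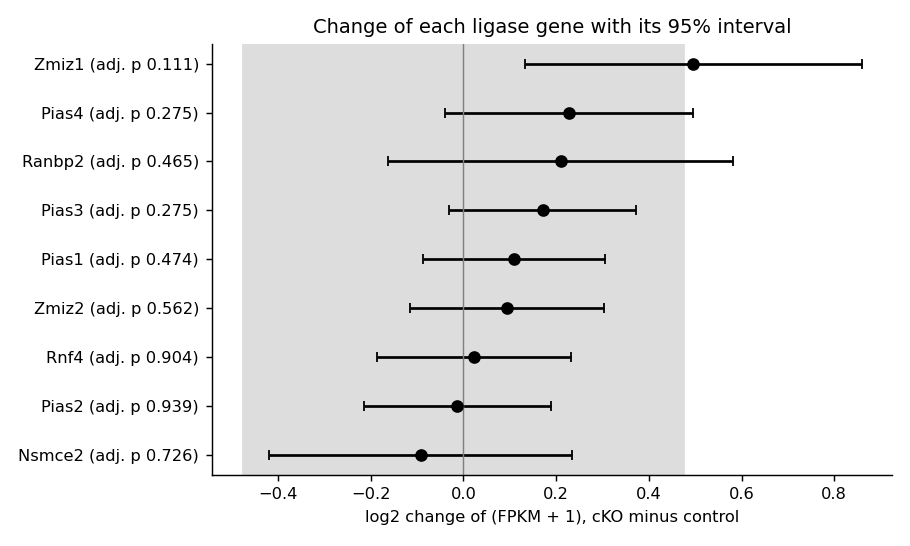
Change of each of the 9 genes between cKO and control on the log2(FPKM + 1) scale, with points for the limma estimate over 3 libraries per group and bars for its 95% interval, ordered by size. The grey band reaches 0.48 to either side of 0 and holds 90% of all 14934 tested genes; the Zmiz1 point at 0.50 lies just beyond it and the other 8 lie inside.

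Levels in control ovaries, which are per length and can be compared between genes, spanned from Rnf4 at 65.2 ± 2.25 FPKM to Pias1 at 9.92 ± 0.35 FPKM (SD, n = 3). The lowest mean over all 6 libraries was 10.4 FPKM, far above the minimum for testing. Rnf4 stood above 91.4% of all genes tested and Pias1 above 50.1%. Between them came, in falling order of the control mean, Nsmce2, Zmiz2, Pias2, Pias3, Zmiz1, Pias4 and Ranbp2. The ranges over the 3 control libraries overlapped for the neighbours Pias3 and Zmiz1 and for Zmiz1 and Pias4, so the place of Zmiz1 beside these genes is not resolved. The ranges of Pias3 and Pias4 did not overlap each other. The other neighbours in this order did not overlap. In cKO the mean of Zmiz1 stood above those of Pias2 and Pias3, and the ranges of all neighbours from Nsmce2 down to Pias1 overlapped.

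**Figure D2:**
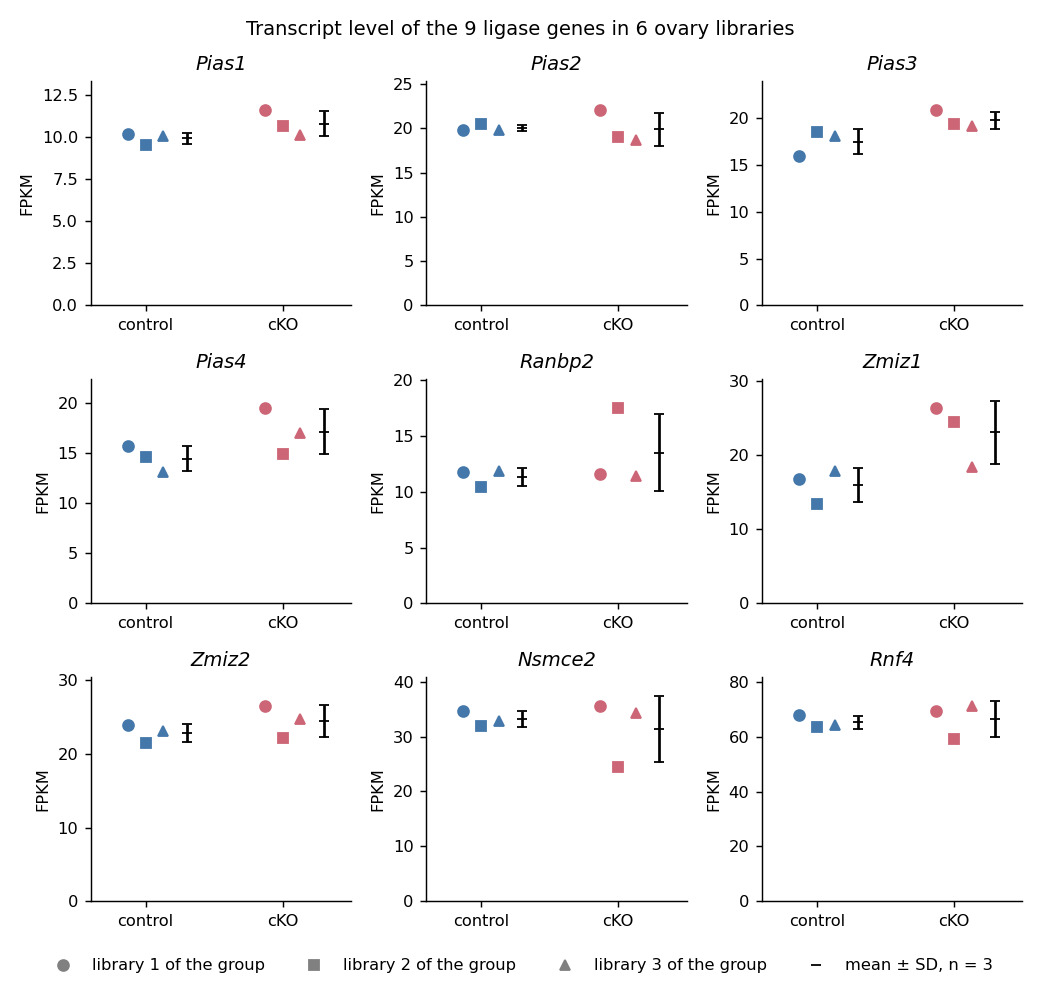
FPKM of the 9 ligase genes in the 3 control and 3 cKO libraries, 1 panel per gene with its own axis from 0; symbols mark the library within its group, and the dash with bars gives the mean ± SD. Most panels show level groups, Zmiz1 lies higher in cKO, and the square of cKO 2 stands away from the rest for Ranbp2 (17.5 FPKM) and Nsmce2 (24.4 FPKM).

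The PIAS genes were named as protein inhibitors of activated STAT, and their products act on many transcription factors. Pias1 read 10.2, 9.53 and 10.1 FPKM in control 1 to 3 and 11.6, 10.6 and 10.1 FPKM in cKO 1 to 3. The groups overlapped, and limma gave a log2 change of 0.11 (standard error 0.08, adjusted p 0.474). Pias2, a coregulator of transcription factors, read 19.8, 20.4 and 19.8 FPKM in control and 22.0, 19.0 and 18.6 FPKM in cKO. The control libraries lay close together inside the range of the cKO libraries, and limma gave a log2 change of -0.01 (standard error 0.09, adjusted p 0.939).

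Pias3, whose product inhibits STAT3, read 15.9, 18.5 and 18.1 FPKM in control and 20.8, 19.4 and 19.1 FPKM in cKO. Each cKO library lay above each control library, but the highest control and the lowest cKO value were close. The log2 change was 0.17 (standard error 0.09, adjusted p 0.275 by limma). Pias4, a ligase with roles at chromosomes and in DNA repair, read 15.7, 14.6 and 13.1 FPKM in control and 19.5, 15.0 and 17.0 FPKM in cKO. The groups overlapped through control 1 and cKO 2, and the log2 change was 0.23 (standard error 0.11, adjusted p 0.275 by limma). Without cKO 1 the change of Pias4 was 0.14, and with cKO 1 as the only cKO library it was 0.41.

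The summed level of the 4 PIAS genes was 61.6, 63.1 and 61.1 FPKM in control and 74.0, 64.0 and 64.9 FPKM in cKO. The cKO libraries were higher, with cKO 1 apart from the other two. Shares of this sum do not depend on how a library is scaled. Pias2 made up 32.1%, 32.4% and 32.5% of it in control and 29.8%, 29.6% and 28.7% in cKO, so its groups did not overlap. The shares of Pias1, Pias3 and Pias4 did overlap, with control means of 16.0%, 28.3% and 23.4% and cKO means of 16.0%, 29.3% and 25.3%. These shares were compared after the values were seen and are given without a test; 3 libraries against 3 cannot go below a two-sided exact permutation p of 0.1.

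Zmiz1 and Zmiz2 encode PIAS-like coactivators of transcription that share the SP-RING, and Zmiz1 is also a partner of the Notch receptor. Zmiz1 read 16.8, 13.4 and 17.8 FPKM in control and 26.3, 24.5 and 18.3 FPKM in cKO. The 2 higher cKO libraries stood clear of the controls, and cKO 3 was only just above control 3. The control mean was 16.0 ± 2.31 FPKM and the cKO mean 23.0 ± 4.18 FPKM (SD, n = 3). By limma the log2 change was 0.50 (standard error 0.16), at an unadjusted p of 0.014 and an adjusted p of 0.111. Zmiz1 was also among the more variable genes, since its standard deviation over the control libraries on the log2 scale exceeded that of 89.9% of the 6163 tested genes within the 9 genes' range of level. Zmiz2 read 23.9, 21.5 and 23.1 FPKM in control and 26.5, 22.2 and 24.8 FPKM in cKO. Its groups overlapped, and the log2 change was 0.09 with an adjusted p of 0.562. The ratio of Zmiz1 to Zmiz2 FPKM was 0.70, 0.62 and 0.77 in control and 0.99, 1.10 and 0.74 in cKO, where cKO 3 fell inside the range of the controls.

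The change of Zmiz1 kept its direction and missed the threshold under all 18 alternatives. Log2 changes ran from 0.38 to 0.72 and adjusted p-values by limma from 0.0553 to 0.335. Without control 2 and without cKO 1, 0 of all genes tested rose, so missing the threshold there says little about Zmiz1. Its change was smallest without control 2, the lowest library, and was 0.65 without cKO 3. With control 3 and cKO 3 both left out it was 0.72 at an adjusted p of 0.0619 by limma. Markers of several cell types, but not of all, differed between the groups beside it, where 30% of all genes tested do not overlap. The groups overlapped for every tested marker of theca and steroidogenic cells, endothelium, surface epithelium, neutrophils and blood. Of immune markers 2 were higher in cKO without overlap, of oviduct markers 1, and of adipose markers 1 was higher and 2 were lower. Summed FPKM of 6 stroma markers was 513 to 595 in control and 697 to 930 in cKO, with 4 of the 6 not overlapping. The 4 mast cell markers summed to 10.1 to 18.1 FPKM in control and 27.8 to 56.3 FPKM in cKO, and none of the 4 overlapped. The 13 oocyte markers summed to 1331 to 1483 FPKM in control and 1821 to 2816 FPKM in cKO, with 7 not overlapping. The 10 granulosa cell markers summed to 3282 to 4237 FPKM in control and 2031 to 2469 FPKM in cKO, with 7 lower and 1 higher in cKO without overlap. No marker of these 4 lists was at 0 in all libraries, and their part in the Zmiz1 values was not tested.

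The tested genes with profiles nearest to Zmiz1 over the 6 libraries were Mbd5, Usp53 and Plxnd1, found among 9396 fully named genes with a mean FPKM of at least 5. Likeness was the root mean square difference of the log2(FPKM + 1) values, each gene centred on its mean, and was 0.085 for Mbd5, 0.089 for Usp53 and 0.093 for Plxnd1. Like Zmiz1, all of them were lowest in control 2 and had their lowest cKO value in cKO 3. None of the 3 passed the test, at log2 changes of 0.63, 0.42 and 0.55 (adjusted p 0.0547, 0.102 and 0.0653 by limma). For Rnf4, the gene with the highest level, the nearest were Fastkd5 at 0.017, Pdgfrb at 0.0205 and Atp6v0c at 0.022, which like Rnf4 were lowest in cKO 2. With 6 libraries and so many candidates, near profiles are a description only.

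The sequences before the transcription starts of Zmiz1 and Pias3 are shown because these were the 2 genes whose groups did not overlap. Zmiz1 (ENSMUSG00000007817) lies on the plus strand of chromosome 14 at 25459185 to 25666743 of GRCm38, the assembly of mm10, and Pias3 (ENSMUSG00000028101) on the plus strand of chromosome 3 at 96696384 to 96706070. Each window holds the 250 bases before a start in RefSeq for GRCm38.p6, at chr14:25458935-25459184 for Zmiz1 and at chr3:96696125-96696374 for the first of the Pias3 starts listed. Capitals mark the E-box CANNTG, the site class of basic helix-loop-helix factors, and the GC box GGGCGG, in either orientation.
Zmiz1: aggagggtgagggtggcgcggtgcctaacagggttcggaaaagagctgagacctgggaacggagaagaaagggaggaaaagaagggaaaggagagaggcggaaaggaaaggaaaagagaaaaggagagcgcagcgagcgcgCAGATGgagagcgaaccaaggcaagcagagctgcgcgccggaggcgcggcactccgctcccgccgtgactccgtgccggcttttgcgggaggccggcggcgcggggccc
Pias3: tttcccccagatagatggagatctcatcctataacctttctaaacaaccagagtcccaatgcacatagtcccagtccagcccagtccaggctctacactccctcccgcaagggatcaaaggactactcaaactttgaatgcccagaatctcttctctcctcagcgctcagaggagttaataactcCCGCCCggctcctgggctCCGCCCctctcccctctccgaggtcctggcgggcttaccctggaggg

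The Zmiz1 window held 1 E-box and no GC box, and the Pias3 window held 2 GC boxes and no E-box. Among 32851 windows of the same length an E-box was found in 66.2% and a GC box in 32.7%. The Zmiz1 window is rich in CG dinucleotides, with 25 against a median of 6, while the Pias3 window has 7. The window of a second Pias3 start, which is not printed, has 26. Windows on chromosome 18, where Pias2 lies, were left out for the 9 genes. Outside it windows were found for 5 of the 9, and those of Pias1, Ranbp2 and Rnf4 held 21 to 25 CG dinucleotides. Zmiz1 shares 297 exon bases with the antisense gene Zmiz1os1, which read at most 0.21 FPKM in any library; with the strand setting unknown, shared bases can count fragments of either gene. Pias3 shares 4 exon bases with Nudt17 on the opposite strand.

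Nsmce2 is the SUMO ligase subunit of the SMC5/6 complex, a ring-shaped complex that acts in DNA repair and chromosome segregation. It read 34.7, 31.8 and 32.8 FPKM in control and 35.5, 24.4 and 34.2 FPKM in cKO. The cKO 2 value was below all others, and the remaining 5 lay close together. The log2 change was -0.09 (standard error 0.14, adjusted p 0.726 by limma), and without cKO 2 it was 0.07. Being lowest in cKO 2 by at least as wide a gap, 0.37 on the log2 scale, was seen in 0.68% of all genes tested. Of 5 other subunits of the complex, the groups overlapped for Smc5, Smc6 and Nsmce1, at log2 changes of 0.03, -0.05 and -0.17, and not for Nsmce4a and Ndnl2. Ndnl2 read 8.94 to 9.62 FPKM in control and 6.25 to 7.65 FPKM in cKO, with a log2 change of -0.34 and an adjusted p of 0.0893. Nsmce4a had a log2 change of -0.19 and an adjusted p of 0.221. These subunits other than Nsmce4a were named after their values were seen.

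Ranbp2 encodes a large nucleoporin on the cytoplasmic side of the nuclear pore, where it holds SUMO-modified Rangap1. It read 11.7, 10.4 and 11.9 FPKM in control and 11.6, 17.5 and 11.5 FPKM in cKO. The cKO 2 value was the highest, by 0.52 on the log2 scale over the next library, and the other two cKO libraries lay within the control range. Of all genes tested, 0.87% were highest in cKO 2 by at least that gap. The log2 change was 0.21 (standard error 0.16, adjusted p 0.465 by limma), and without cKO 2 it was 0.02 at an adjusted p of 0.9. Rangap1, named after its values were seen, had a log2 change of -0.26 and an adjusted p of 0.282, and its groups overlapped.

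Rnf4, the ubiquitin ligase for SUMO chains, read 67.8, 63.6 and 64.1 FPKM in control and 69.2, 59.0 and 71.1 FPKM in cKO. The control libraries lay inside the cKO range. The log2 change was 0.02 (standard error 0.09, adjusted p 0.904 by limma), with a 95% interval from -0.19 to 0.23. Pml, whose protein is a known target of Rnf4, read 12.84 to 14.99 FPKM in control and 12.02 to 16.01 FPKM in cKO and was named after its values were seen.

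Across the 9 genes the libraries did not contribute equally. cKO 1 held the highest value for 7 of the 9, while it was the highest library for 28.6% of all genes tested. Ranbp2 was highest in cKO 2 and Rnf4 in cKO 3. Control 2 held the lowest value for 4 of the 9, against 15.6% of all genes tested. The lowest value was in cKO 2 for 2, Nsmce2 and Rnf4, against 26.3% of all genes tested. With mitochondrial genes removed and the remaining totals made equal, changes ran from -0.04 for Nsmce2 to 0.55 for Zmiz1, and no gene of the 9 passed. The number in the library titles of the 3 controls and cKO 1 falls in a range apart from that of cKO 2 and cKO 3, with no statement of what it stands for. In the 3 controls against cKO 1, where the lone cKO library is assumed to vary as the controls do, none of the 9 passed, and Zmiz1 was higher by 0.69 at an adjusted p of 0.148 by limma. The other range holds cKO libraries only.

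**Figure D3:**
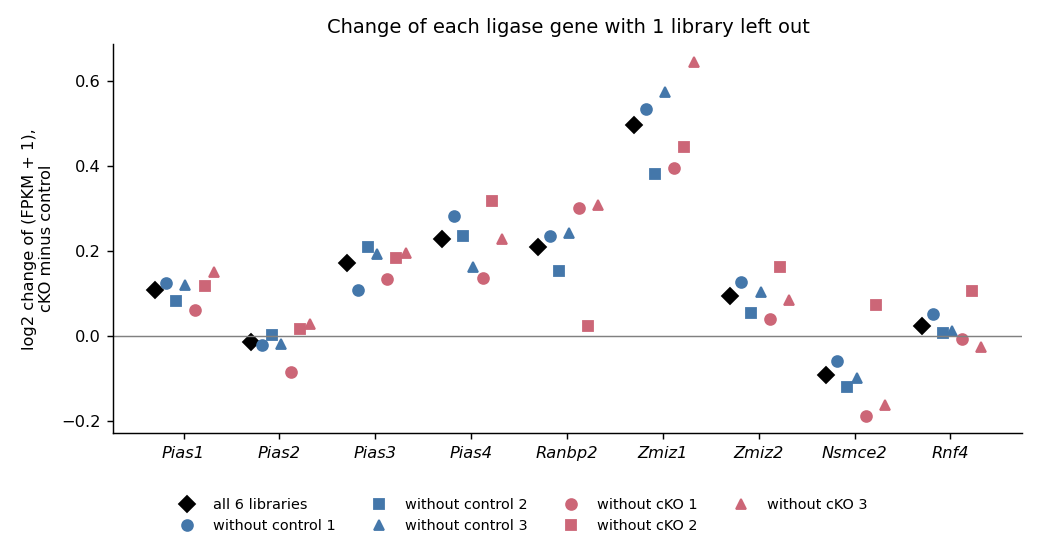
Log2 change of each ligase gene between cKO and control, with all 6 libraries (black diamond) and with each library left out in turn (blue for a control left out, red for a cKO library left out; the symbol gives its number). Zmiz1 stays between 0.38 and 0.65, Ranbp2 drops to 0.02 and Nsmce2 turns positive at 0.07 without cKO 2, and Pias2 and Rnf4 lie on either side of 0.

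The rest of the SUMO pathway gave the same count. There were 42 other pathway genes with values, of which 41 were tested, and none rose or fell by limma; over all genes tested 4.33% passed. At an unadjusted p below 0.05, 3 of the 41 were higher and 5 lower, against 14.5% and 9.8% of all genes. The groups did not overlap for 8 as higher and 10 as lower, against 18% and 12% of all genes. Their median log2 change was -0.05. Of the genes for SUMO itself, Sumo2 read 351, 376 and 370 FPKM in control and 315, 288 and 327 FPKM in cKO. Sumo3, whose protein is nearly the same as that of Sumo2, read 128, 123 and 125 FPKM in control and 153, 147 and 142 FPKM in cKO. Neither gene's groups overlapped and the differences were opposite, at -0.24 for Sumo2 (adjusted p 0.132 by limma) and 0.23 for Sumo3 (adjusted p 0.1) on the log2 scale.

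The SUMO-activating enzyme is a pair of Sae1 and Uba2. Sae1 averaged 73.0 ± 5.98 FPKM in control libraries against 61.7 ± 4.54 FPKM in cKO libraries (SD, n = 3) without overlap, a log2 change of -0.24 and an adjusted p of 0.173 by limma. Uba2 had a log2 change of -0.06 and an adjusted p of 0.7. SUMO proteases remove SUMO from proteins. The list of 10 used here includes Senp8 (log2 change -0.13), a relative whose protein acts on NEDD8 rather than on SUMO. Of the 10 listed genes, Senp8 included, 3 had a positive and 7 a negative log2 change, with a median of -0.07. The highest of them, Senp6 and Senp3, had log2 changes of -0.12 and 0.02. The list of 9 other SUMO ligases and SUMO-targeted ubiquitin ligases includes Rwdd3 (log2 change 0.16), which promotes SUMO attachment but is not such a ligase. Of the 9 listed genes, 6 had a positive log2 change, Rwdd3 among them, with a median of 0.04. Trim28, a corepressor that also has SUMO ligase activity, was the most abundant of these, with 247 ± 7.56 FPKM in control libraries and 214 ± 42.7 FPKM in cKO libraries, and like Nsmce2 it was lowest in cKO 2, at 172 FPKM. Trim27 was also lowest there, at 51.7 FPKM against 65.5 or more elsewhere.

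Of 17 tested partners and targets of the 9 proteins, 6 had a positive and 11 a negative log2 change, with a median of -0.16. The groups did not overlap for 2 as higher and 6 as lower in cKO, against 18% and 12% of all genes tested. The most abundant were Ran, the GTPase of nuclear transport, and Nsmce4a, at log2 changes of -0.10 and -0.19. Named after its values were seen, the transcription factor gene Stat3 differed without overlap. It went from 19.6 ± 0.32 FPKM in control libraries to 23.7 ± 1.46 FPKM in cKO libraries (SD, n = 3; adjusted p 0.1 by limma).

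**Figure D4:**
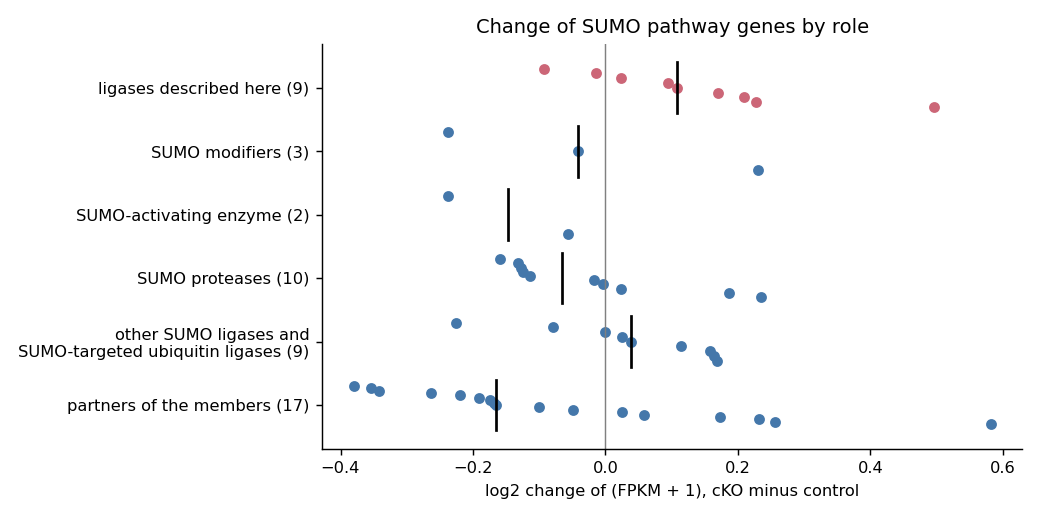
Log2 change of the 9 ligase genes (red) and of 41 other tested SUMO pathway genes (blue) by role, 1 point per gene, with a black line at the median of each group and the number of genes in brackets. The points spread on either side of 0 in all groups but the activating enzyme, and none passed the test.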

How the data were processed

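RNA of 6 pooled ovary libraries was sequenced on an Illumina HiSeq. The authors deposited FPKM for 37924 Ensembl genes. Per the submitters' processing notes TopHat2 2.0, Cufflinks 2.0 and mm10 were used, in roles they do not state. Annotation, strand setting and filters: not given in the sources used here. Groups follow the genotype label, and the library numbers are only names, given in order of deposit. FPKM divides by the library total, so abundant transcripts move all other values.

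Here limma 3.58.1 in R 4.3.3 (lmFit, eBayes with trend) was fitted to log2(FPKM + 1) of 14934 genes with a mean FPKM of at least 0.5, cKO against control, two-sided, with Benjamini-Hochberg adjustment over all. This scale understates changes of low genes. No count model was fitted. Depth was estimated from low FPKM values read as 1 fragment and carries no interval. Gene positions and exon overlaps came from GENCODE M21, and upstream windows from RefSeq (GRCm38.p6). The procedure was run on simulated data with independent noise and added changes larger than those of the 9 genes. It was not tested on changes of their size.

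The 9 genes, the pathway lists and the alternatives were chosen with earlier results of these data known. Named genes were the 9, the passing genes of each of 5 pathway lists or else the 2 with the highest mean FPKM, and the 3 nearest profiles to the gene with the smallest p and to the gene with the highest level. Some genes are left out of the text. The alternatives were other scalings, pseudocounts and filters, array weights, robust eBayes and left-out libraries.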

Additional observations from a re-analysis of the deposited data

How the results depend on the processing

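None of the 9 genes rose or fell under any of the 18 alternatives, which were chosen with earlier results of these data known. Pias1, Pias3, Pias4, Ranbp2, Zmiz1 and Zmiz2 kept a positive change in each. Changes near 0 turned sign. Pias2 was 0.089 with centring on the reference genes, 0.042 with mitochondrial genes removed, 0.022 without control 3 and cKO 3, and 0.13 in the 3 controls against cKO 1. Nsmce2 was 0.0099 with reference genes and 0.10 against cKO 1 alone, and Rnf4 was -0.043 with median centring and -0.038 without control 3 and cKO 3. Over fits without 1 library Pias2 ran from -0.087 to 0.029, Nsmce2 from -0.19 to 0.073 and Rnf4 from -0.027 to 0.10. Centring on the reference genes moved the median change of all genes from 0.05 to 0.15, so changes of the 9 genes under it are higher by the same shift.

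Of the other pathway genes, Sumo3 and Stat3 rose (2 genes) with reference genes, and Sumo3, Stat3 and Sp110 rose (3 genes) and Ndnl2 fell (1 gene) with array weights. Ndnl2 also fell, as the only such gene (1), with quantile normalisation and with median centring. Over all genes tested, 334 rose and 312 fell, and these counts depend on the libraries. They were 979 rising with reference genes, 577 falling with median centring, 1041 and 743 with array weights, and 4 and 24 with no filter, where 23854 genes were tested. There were 204 rising without control 3 and cKO 3, and 22 rising and 1 falling in the controls against cKO 1. Without 1 library, 0 to 307 rose and 2 to 353 fell: 1 and 4 without control 1, 0 and 2 without control 2 and without cKO 1, 40 and 38 without cKO 2, and 209 and 176 without cKO 3. Without control 3 they were 307 and 353. The cause of these differences was not tested. Fits with a library left out also hold fewer libraries, and the fit with no filter holds more genes.

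No paired analysis was possible because no replicate number stands in the labels. Pools of whole ovary, 3 libraries per group and FPKM without counts limit the precision.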
